A study of Mus with 15 samples.

Results

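The 10 genes described here make, carry or receive dopamine and its sister monoamines: the dopamine receptors Drd1, Drd2, Drd3, Drd4 and Drd5, tyrosine hydroxylase (Th), the plasma membrane transporters of noradrenaline (Slc6a2), dopamine (Slc6a3) and serotonin (Slc6a4), and the vesicular monoamine transporter Slc18a2. They were chosen by name, out of 21887 protein-coding genes, and their H2Aub was read from every peak that overlapped the gene body or the 5 kb on either side of it by at least 1 bp (the gene window). H2Aub is histone H2A with a single ubiquitin near its C-terminus, and it was mapped by ChIPmentation, a chromatin immunoprecipitation in which a transposase adds the sequencing adapters on the beads, in mouse thalamus.

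The 4 groups crossed genotype with treatment. Control mice (genotype label Maged1 Loxp, called WT) carried the floxed Maged1 allele without deletion, and Maged1-cKO mice (label Maged1cKO, called cKO) lost Maged1 where Vglut2-ires-Cre is active, that is in glutamatergic neurons that express Vglut2 and not in every thalamic cell. All mice were 2 to 4 months old, and the study's methods describe hemizygous males. All groups received saline for 3 days and then either cocaine at 20 mg/kg (intraperitoneal) or saline again for 5 days. WT saline, WT cocaine and cKO saline had 3 libraries each and cKO cocaine 2, all from pooled thalami (3 to 4 per pool in the series' design text, 2 to 4 in the methods), so no value belongs to 1 animal. Each library has its own list of broad peaks, called by the authors against total input. The lists hold no RNA and no reads of Maged1, so neither the deletion nor the tissue label could be checked in them.

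Dopamine receptors are G protein-coupled receptors: Drd1 and Drd5 raise cyclic AMP, and Drd2, Drd3 and Drd4 lower it. The plasma membrane transporters clear the released amine from the extracellular space and are the direct targets of cocaine, while Slc18a2 loads monoamines into vesicles and Th makes the precursor of dopamine and noradrenaline. The neurons that make these amines lie mainly in the midbrain and hindbrain, and the thalamus mainly receives their axons. H2Aub is placed by Polycomb repressive complex 1 and is best known at genes that are kept silent in a tissue.

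The lists differed in length. WT lists held 8955 to 26055 peaks and covered 5.55 to 17.2 Mb of the genome. The cKO replicates numbered 1 stood apart, with 54653 peaks in cocaine and 80713 in saline and peaks that were narrower in the median (206 and 198 bp) than those of the other 9 lists (242 to 429 bp), while the remaining 3 cKO lists held 7271 to 17442 peaks. The number of reads behind each list is not in the files, so a longer list from a deeper library and a longer list from more marked chromatin cannot be told apart. Counts of the 10 genes that were H2Aub+ or apart between groups are therefore given beside the share over all protein-coding genes, and the comparisons that include cKO libraries also without the replicates numbered 1. In pooled tissue, more cells with the mark and more mark per cell cannot be told apart either.

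H2Aub was found at all 10 genes, but not with the same regularity. Drd2, Drd4, Slc6a4 and Slc18a2 had a peak in each of the 11 libraries, which 6.76% of protein-coding genes had. Drd5, Slc6a2 and Slc6a3 had one in 10 libraries, so 7 of the 10 genes had a peak in at least 10 libraries against 9.91% of protein-coding genes. Drd1 had a peak in 8 libraries, Th in 7 and Drd3 in 5. Their windows were longer than usual, with a median of 44.4 kb against 27.2 kb over protein-coding genes, so the share of the window under peaks was also computed. Averaged over the 11 libraries, the median gene of the 10 had 4.09% of its window under peaks, and the median protein-coding gene had 0.0897%. Drd4, a receptor best known from prefrontal cortex and retina, led the 10 genes with 18.7% of its window under peaks, more than 98.3% of protein-coding genes. Drd3, the receptor of limbic striatum, came last with 0.256%, still more than 65.6% of protein-coding genes.

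The 237 peaks of the 10 windows ran from 101 to 5200 bp in width, with a median of 396 bp, beside medians of 198 to 429 bp over all peaks of a list. Outside the cKO replicates numbered 1, their enrichment over input, a linear fold computed by the authors' caller, lay between 2.75 and 5.12, and no peak had a q under 1e-05. Of all 237 peaks, 147 lay inside the gene body, 31 crossed a gene end and 59 lay outside it.

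Peaks of a group that touched were merged into elements, an element was kept where 2 or more replicates had a peak in it, and a gene with an element in its window was called H2Aub+. The elements follow the study's methods, but the window is wider than the promoter window used there, and peaks of every listed q were kept. In WT saline 8 of the 10 genes were H2Aub+ (12.9% of protein-coding genes), and in WT cocaine 9 (18%). The counts were 5 in cKO saline (11.4%) and 7 in cKO cocaine (13.1%). An element in cKO cocaine needed a peak in each of its 2 libraries, and in the other groups in 2 of 3, so the rule was stricter in cKO cocaine. Drd2, Drd4, Slc6a2, Slc6a4 and Slc18a2 were H2Aub+ in all 4 groups, as 7.87% of protein-coding genes were. At Drd2 the place differed between groups. Its only cKO cocaine element (chr9:49409036-49409744) lay outside the higher-coordinate end, within the long non-coding RNA gene Gm46111. The elements of the other groups lay at or near the lower-coordinate end. With q at most 0.05, Drd2 was H2Aub+ in neither cKO group. Th was the gene that was H2Aub+ in WT cocaine and not in WT saline (6.49% of protein-coding genes), and none was the other way round (1.43%). Drd1 and Slc6a3 were H2Aub+ in cKO cocaine and not in cKO saline (3.96%), and again none the other way round (2.28%). Drd3 was H2Aub+ in no group. Without replicate 1, 3 genes were H2Aub+ in cKO saline (5.82%), and cKO cocaine had a single library left and so no elements. With windows laid only at the gene ends, from 5 kb outside to 2 kb inside, 8 genes were H2Aub+ in WT saline (11.1%), 8 in WT cocaine (15.6%), 5 in cKO saline (9.63%) and 7 in cKO cocaine (11.1%), and Th was the gene lost in WT cocaine. With only peaks of q at most 0.05 kept, 7 genes were H2Aub+ in WT saline (11.4%), 9 in WT cocaine (16.4%), 4 in cKO saline (9.27%) and 5 in cKO cocaine (11.2%).

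**Figure D1:**
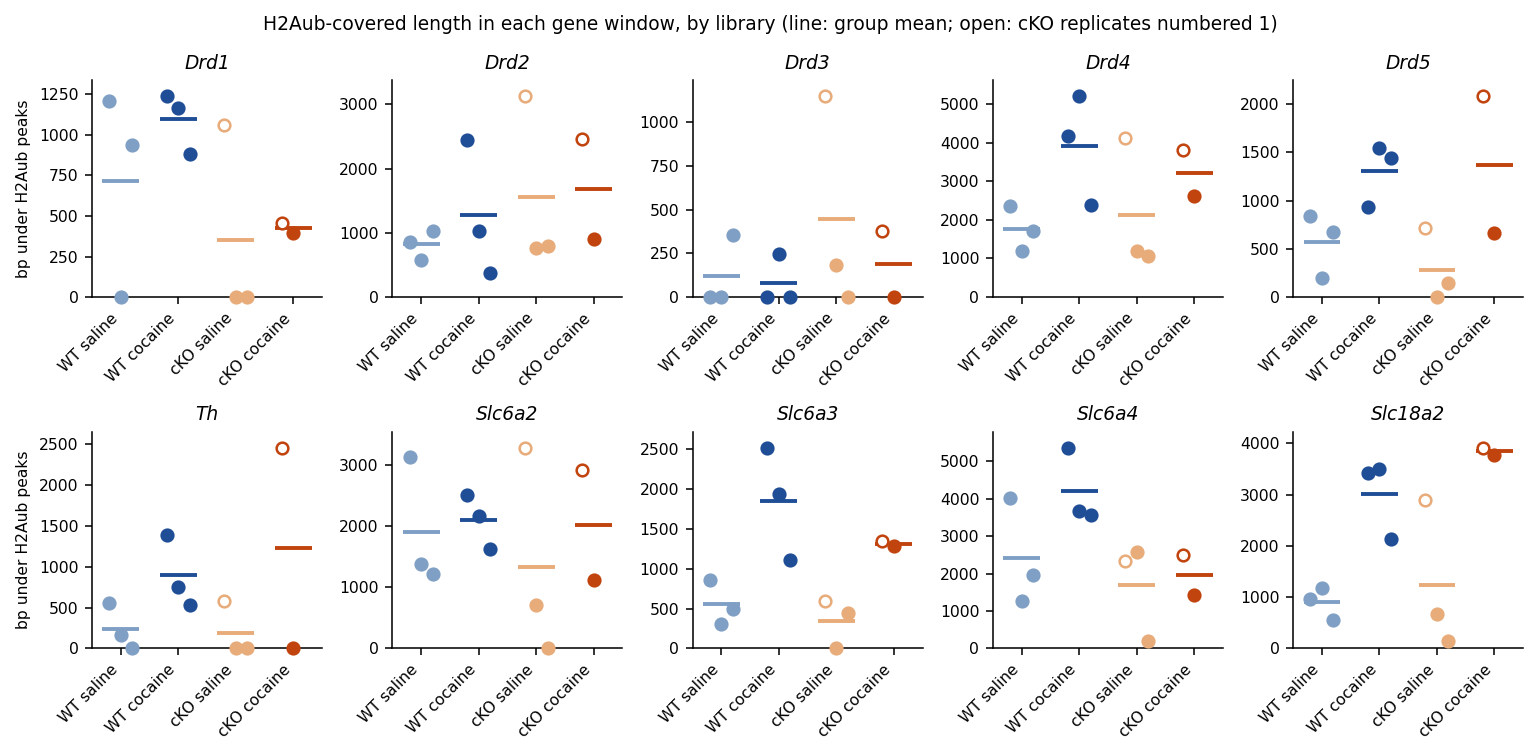
Length under H2Aub peaks (bp, linear axis from 0, a scale per gene) in the window of each of the 10 genes; points are libraries, lines are group means, and open points are the cKO replicates numbered 1. At Drd4, Drd5, Slc6a3 and Slc18a2 all 3 WT cocaine points lie above all 3 WT saline points, and the open point is the highest of its cKO group everywhere except Slc6a4 in saline.

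The peaks of most of these genes gathered at a single gene end. The gene table gives no strand, so the ends are named by coordinate (mm10), and which end is the transcription start was not read from it. At Drd4 a stretch of 469 bp (chr7:141292961-141293429), inside the gene and 987 bp from its lower-coordinate end, lay under a peak in all 11 libraries. At Slc18a2 a stretch of 141 bp (chr19:59261515-59261655), 637 bp inside the lower-coordinate end, was shared by all 11 libraries as well. Of protein-coding genes, 2.6% had such bases in their window.

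Sharing was lower elsewhere. At Slc6a4 (153 bp, chr11:76999568-76999720) and Slc6a2 (90 bp, chr8:92961561-92961650) the shared bases were under a peak in 9 libraries, which with Drd4 and Slc18a2 makes 4 genes against 5.23% of protein-coding genes. At Drd1 8 libraries shared 57 bp (chr13:54054919-54054975), 683 bp inside the higher-coordinate end. At Drd5 7 libraries shared bases, at Drd2 and Slc6a3 6, at Th 3 and at Drd3 2.

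The share of covered bases within 2 kb of the nearer end separated the genes further. It was 98.2% at Drd1, 93.5% at Slc6a3 and 92.0% at Drd5, where these 4 kb made up 27.6%, 7.61% and 30.7% of the window. It was 75.0% at Slc6a2, 67.1% at Drd4, 62.0% at Slc6a4, 60.3% at Drd2 and 52.4% at Slc18a2. At Th it was 37.6%, and at Drd3 0%, so the peaks of Drd3 lay away from the end that their shared bases were nearer to.

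The windows also hold neighbours, and a peak there may belong to either gene. An end of Deaf1, a transcription factor gene, lies 712 bp from Drd4, and Pdzd8, which encodes a lipid transfer protein, lies 72 bp from the higher-coordinate end of Slc18a2. The long non-coding RNA genes Gm46111, Gm26560 and Gm12343 overlap Drd2, Drd5 and Slc6a4, and Gm34193 lies 3888 bp from Drd5.

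The first comparison asked how repeated cocaine altered H2Aub at these genes in WT thalamus. Mean covered length was higher after cocaine at 9 of the 10 genes, all except Drd3. Over the 8200 protein-coding genes with a peak in any WT library, 77.0% had a higher mean after cocaine, so most tested genes had the same direction. With equal numbers of peaks per list the mean was higher at 8 of the 10 genes and 67.0% of tested genes, and per Mb covered at 7 and 59.1%. At Drd4, Drd5, Slc6a3 and Slc18a2 every cocaine library lay above every saline library, which 15.5% of the tested genes did. Of the 2087 genes with a peak in all 6 WT libraries 30.6% were apart in this way, and of the 7 such genes among the 10, these 4 were. No gene of the 10 had every saline library higher (0.293% of tested genes).

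Slc6a3, the dopamine transporter, had 2516, 1931 and 1105 bp under peaks in the WT cocaine libraries and 859, 310 and 496 bp in the WT saline libraries. The lowest cocaine library was above the highest saline library, and the mean of 1851 ± 709 bp (SD, n = 3) was 3.33 times the saline mean of 555 ± 279 bp (SD, n = 3). The difference was 1296 bp with an SE of 440 bp. Its peaks stayed at the lower-coordinate end: within 2 kb of it the mean was 1796 bp after cocaine and 461 bp after saline.

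Slc18a2, which fills the vesicles that release monoamines, had 3419, 3500 and 2130 bp after cocaine and 968, 1190 and 555 bp after saline. These groups did not overlap either, with means of 3016 ± 769 and 904 ± 322 bp (SD, n = 3 each), a ratio of 3.34. The added length lay in part deep in the gene. More than 2 kb from the lower-coordinate end, cocaine libraries had 708 to 2030 bp under peaks and saline libraries 0 to 153 bp, while near that end they had 1389 to 1564 and 422 to 1037 bp. The single element inside the gene body away from the end in WT cocaine was 560 bp long (chr19:59279317-59279876). It is a replicate 1 peak, and a replicate 2 peak covers 339 bp of it.

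**Figure D2:**
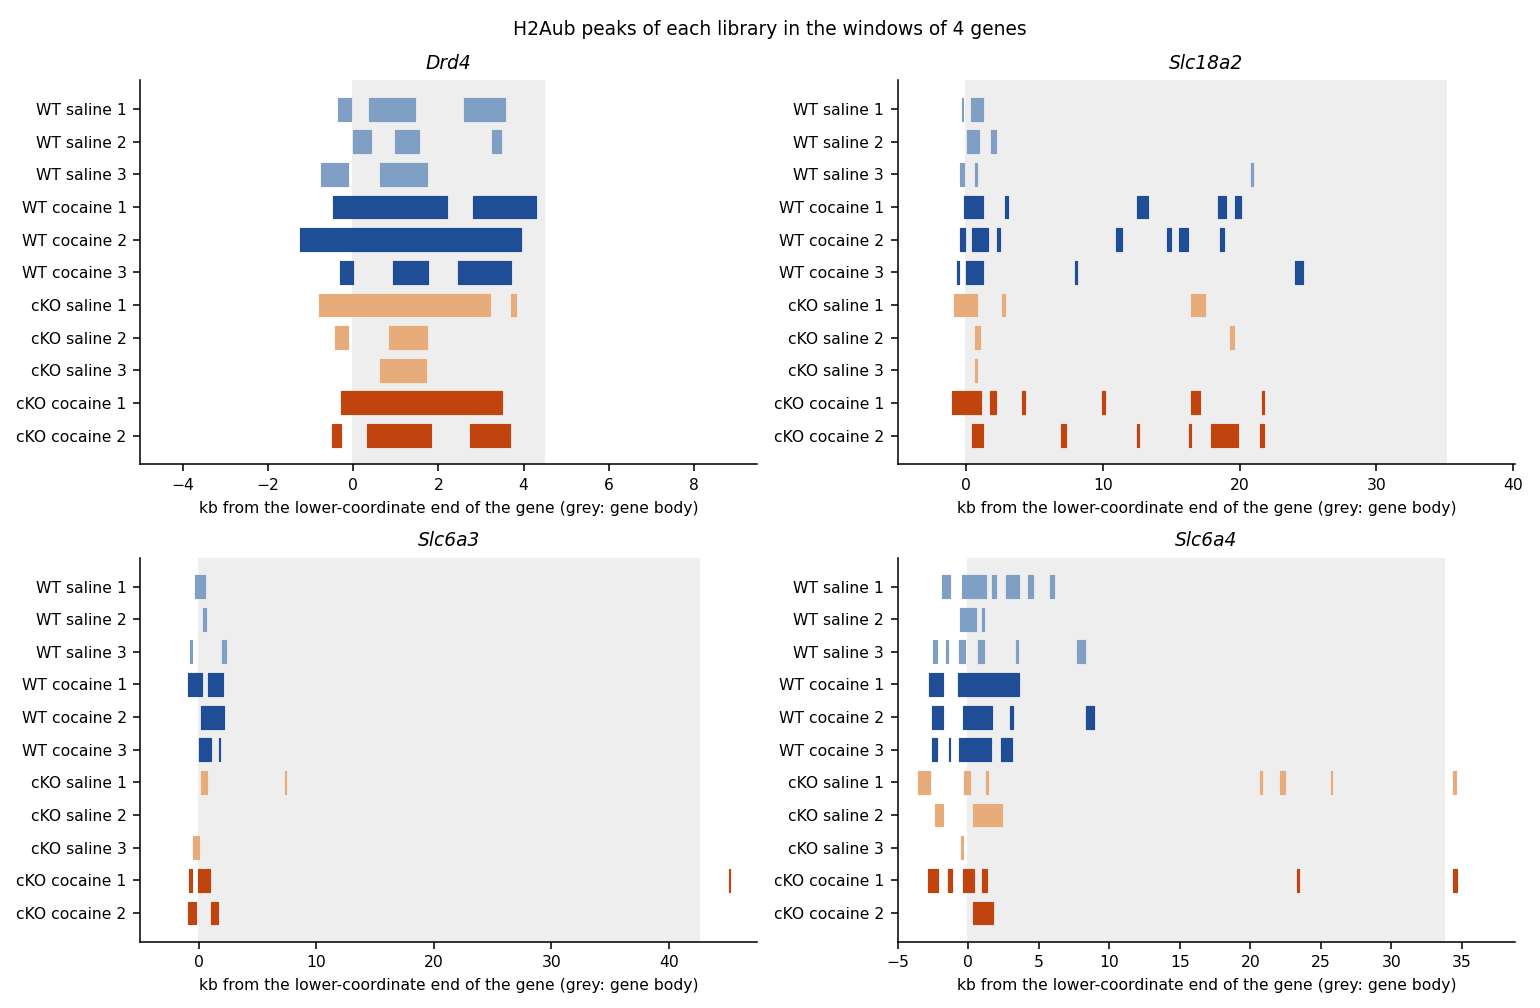
Peaks of each of the 11 libraries (rows) in the windows of Drd4, Slc18a2, Slc6a3 and Slc6a4, in kb from the lower-coordinate end of the gene, with the gene body in grey. Peaks cluster at 0 kb in all 4 genes, spread over most of the body of Drd4, and recur deep in Slc18a2, where WT cocaine libraries had 708 to 2030 bp beyond 2 kb from the end and WT saline libraries 0 to 153 bp.

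Drd4 had 4165, 5200 and 2373 bp after cocaine against 2360, 1184 and 1710 bp after saline in WT. The lowest cocaine library exceeded the highest saline library by little, and the ratio of the means, 3913 ± 1430 to 1751 ± 589 bp (SD, n = 3 each), was 2.23. In WT cocaine replicate 2 a single peak of 5200 bp ran over nearly the whole gene, whereas the widest saline peak was 1096 bp.

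Drd5, which like Drd1 raises cyclic AMP, had 929, 1543 and 1443 bp after cocaine and 840, 194 and 678 bp after saline. Here too the lowest cocaine library was close to the highest saline library, and the means of 1305 ± 329 and 571 ± 336 bp (SD, n = 3 each) had a ratio of 2.29. Most of its peaks lay across or just outside the lower-coordinate end.

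The other members overlapped between the WT treatments. Th had 1392, 754 and 538 bp after cocaine and 552, 161 and 0 bp after saline, a ratio of 3.76 in which the lowest cocaine library was just below the highest saline library. The saline peaks of Th lay outside the gene and the cocaine peaks inside it or across its higher-coordinate end. Slc6a4 had 5361, 3659 and 3571 bp after cocaine and 4011, 1268 and 1971 bp after saline. Drd1 had 1237, 1167 and 882 bp after cocaine, while its saline libraries held 1210, 0 and 936 bp and so reached into the cocaine range. Slc6a2, with means of 2097 and 1906 bp, Drd2, with 1281 and 822 bp, and Drd3, with 82.7 and 118 bp, had ranges that overlapped as well.

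No WT difference passed a test. In exact two-sided permutation tests over libraries, Drd4, Drd5, Slc6a3 and Slc18a2 each had p = 0.10, the smallest that 3 against 3 libraries allow, and an adjusted p of 0.633 over the 8200 genes (Benjamini-Hochberg). Of the other 6, Th had an exact p of 0.20, Slc6a4 of 0.30 and the rest of 0.60 to 1. No protein-coding gene reached 0.05 before or after adjustment, which this design cannot give. The list lengths moved with the treatment: covered genome was 14.2 ± 3.5 Mb after cocaine and 8.35 ± 2.77 Mb after saline (SD, n = 3 each). Per Mb covered, the groups stayed apart at Slc6a3 and Drd4, and Th joined them (3 of 10, against 7.55% of tested genes), but Drd5 and Slc18a2 overlapped. With equal numbers of peaks per list they were apart at Drd1 and Slc18a2 (11.5%). Without WT saline replicate 1, the longest saline list, 7 of the 10 genes were apart (30.1%). With only peaks of q at most 0.05 kept, the same 4 genes were apart (15.9%). At q of at most 0.01 the genes apart were Drd1, Slc6a2 and Slc18a2 (12.1%), and the other 3 were lost: Drd4 and Drd5 had differences of 538 and 310 bp with exact permutation p of 0.80 and 1, and Slc6a3 had no peak in any WT library. Within the gene body alone Th took the place of Drd5 (14.7%), with 10 kb flanks Drd4 overlapped (15.7%), and in the gene-end windows Slc6a4 took the place of Drd4 (15%). Slc18a2 was thus apart in each of these settings except per Mb covered. The part of list length in these differences was not tested further.

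The 10 windows were also added up in each library. Per Mb of covered genome, WT cocaine libraries had 1391, 1412 and 1353 bp in these windows and WT saline libraries 1332, 1127 and 1063 bp. The cKO cocaine libraries had 1050 and 1104 bp and the cKO saline libraries 721, 796 and 662 bp. Per Mb covered, the 3 cKO saline values were thus the lowest of the 11, with or without replicate 1. The 3 WT cocaine values were the highest, but 1353 bp lay close to the highest WT saline value of 1332 bp. Among these libraries, WT saline replicate 1 had 3.59% of the 10 windows and 0.708% of all protein-coding gene windows under peaks. In WT cocaine replicate 3 these shares were 3.41% and 0.688%. Relative to all protein-coding gene windows, WT cocaine replicate 3 was therefore not above WT saline replicate 1. No p is given for a sum over chosen genes.

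**Figure D3:**
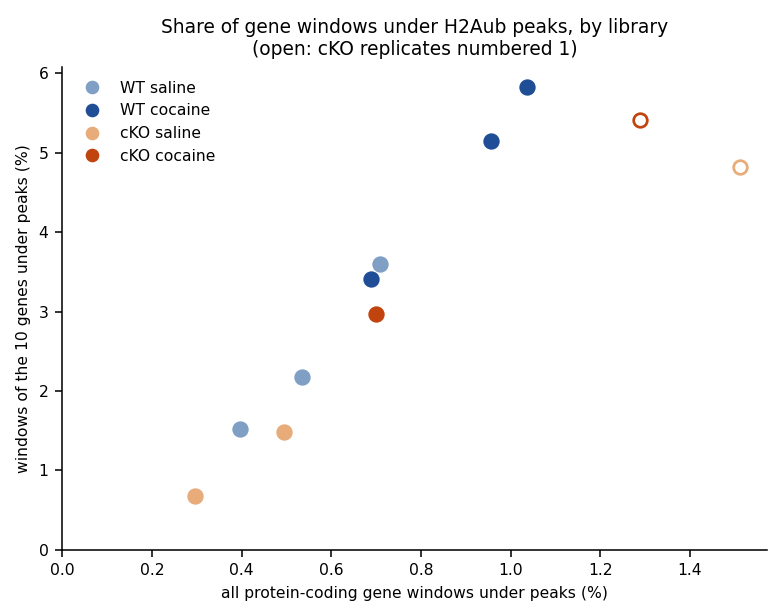
Share of the summed windows of the 10 genes under peaks (%, vertical) against the share of all protein-coding gene windows under peaks (%, horizontal) in each library; colours are groups and open points are the cKO replicates numbered 1. The 10 genes held 0.681 to 5.83% and all genes 0.297 to 1.51%, and the open points have the largest share of all genes without the largest share of the 10.

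The second comparison asked the same of cKO mice. Here mean covered length was again higher after cocaine at 9 of the 10 genes, against 56.5% of 14139 tested genes, but the groups overlapped at 8 of the 10. Without cKO cocaine replicate 1 the mean was higher after cocaine at 5 of the 10 genes (20.1% of 13185 tested genes), and without cKO saline replicate 1 at all 10 (96.3% of 11505). With equal numbers of peaks it was higher at 5 (56.1%) and per Mb covered at 7 (55.7%). Slc6a3 and Slc18a2 were the genes with every cocaine library above every saline library, as were 3.9% of tested genes. Of the 1876 genes with a peak in all 5 cKO libraries 14% were apart in this way, and of the 4 such genes among the 10, Slc18a2 was. These are also 2 of the 4 genes that stood apart in WT. No saline group lay wholly higher (0.0778%).

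Slc6a3 had 1348 and 1283 bp in the cKO cocaine libraries and 598, 0 and 451 bp in the cKO saline libraries. The means of 1316 ± 46.0 (SD, n = 2) and 350 ± 312 bp (SD, n = 3) had a ratio of 3.76 and an exact permutation p of 0.10, with an adjusted p of 1. The list with 17442 peaks gave nearly the same length as that with 54653.

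Slc18a2 had 3917 and 3777 bp after cocaine and 2892, 666 and 153 bp after saline in cKO. The highest saline value came from the list with 80713 peaks, and the ratio of the means, 3847 ± 99.0 (SD, n = 2) to 1237 ± 1456 bp (SD, n = 3), was 3.11, with an exact permutation p of 0.20. As in WT, much of the cocaine length lay deep in the gene: 1584 and 2955 bp were more than 2 kb from the lower-coordinate end in cocaine libraries, against 0 to 1222 bp in saline libraries. There, a peak of each cKO cocaine library merged into an element of 360 bp (chr19:59282340-59282699). The deep element of WT cocaine was covered whole by a peak of 1991 bp in cKO cocaine replicate 2 (chr19:59278763-59280753) and by none in replicate 1.

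At several of the remaining genes the cKO replicates numbered 1 set most of the mean. Th had 2457 bp in cKO cocaine replicate 1 and 0 bp in replicate 2, and 576, 0 and 0 bp in saline, so every base of Th under a peak in cKO came from these replicates. Drd5 had 2080 and 662 bp after cocaine and 713, 0 and 143 bp after saline. Drd1 had 458 and 396 bp after cocaine, and 1062, 0 and 0 bp after saline.

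Without the cKO replicates numbered 1, 1 cocaine library is left against 2 saline libraries. That library exceeded both at 7 of the 10 genes, as it did at 67.2% of the 5739 genes then tested, so the count is near what all genes gave. Drd3, Th and Slc6a4 were the exceptions. With equal numbers of peaks per list none of the 10 genes was apart in cKO (1.97% of tested genes). Per Mb covered, Drd5 and Slc18a2 were (5.18%).

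The WT and cKO responses to cocaine were compared directly in an exact permutation test, in which treatment was exchanged among the libraries of each genotype (200 arrangements, smallest p 0.005). No gene of the 10 passed it: the exact p ranged from 0.335 at Slc6a4, whose mean was higher after cocaine by 1780 bp in WT and by 256 bp in cKO, to 0.825 at Drd2. Neither of these differences passed its own test. Of 14474 genes tested, 46 had p of 0.05 or less and 0 did after adjustment. With equal numbers of peaks per list, Drd1 reached an unadjusted exact p of 0.05, with a cKO effect minus WT effect of -1360 bp and an adjusted p of 1. Under that setting 159 of 7957 genes tested (2.00%) had p of 0.05 or less, and again 0 did after adjustment.

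The third comparison set cKO against WT after saline. No gene of the 10 was apart in either direction (0.54% of 13344 tested genes for cKO higher and 0.607% for WT higher), and exact permutation p values ran from 0.30 at Drd5 to 1 at Th. The mean was lower in cKO at 6 genes, while 85.6% of tested genes had a higher mean in cKO. That share rested on 1 library: without cKO saline replicate 1 it was 22.8% of 6948 genes, and none of the 10 had a higher mean in cKO. With equal numbers of peaks the mean was higher in cKO at 2 of the 10 genes and 51.7% of tested genes, and per Mb covered at 2 and 73.8%. Drd5 and Slc6a2 were apart with WT higher per Mb covered (2.07% of tested genes), and Slc6a2 also with equal numbers of peaks (5.11%). Both were apart when cKO saline replicate 1 was left out (10.1%). Slc6a2 had 3126, 1377 and 1214 bp in WT saline and 719 and 0 bp in the other cKO saline libraries. Drd5 had 840, 194 and 678 bp in WT saline and 0 and 143 bp there.

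The fourth comparison set cKO against WT after cocaine. Drd1 and Slc6a4 were lower in every cKO library than in every WT library, as were 3.25% of 11926 tested genes. Slc18a2 was higher in every cKO library (6.6%). Means were higher in cKO at 5 of the 10 genes and at 74.0% of tested genes. Without cKO cocaine replicate 1 they were higher at 1 of the 10 genes and 28.2% of 7675 tested genes, with equal numbers of peaks at 0 of the 10 and 43.7%, and per Mb covered at 3 of the 10 and 69.0%.

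Drd1, the main receptor of the direct striatal pathway, had 458 and 396 bp in cKO cocaine and 1237, 1167 and 882 bp in WT cocaine, means of 427 ± 43.8 (SD, n = 2) and 1095 ± 188 bp (SD, n = 3). The exact permutation p was 0.10 and the adjusted p 0.681. Its peak kept its place, inside the gene by the higher-coordinate end, and was narrower in both cKO libraries. Slc6a4, the serotonin transporter, had 2488 and 1438 bp in cKO cocaine and 5361, 3659 and 3571 bp in WT cocaine, with the same exact p of 0.10 and adjusted p of 0.681. Both genes stayed apart per Mb covered (4.93%) and with equal numbers of peaks (11.4%), where Slc6a2 joined them, and both were apart without cKO cocaine replicate 1 (5 genes, 23.3%).

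The higher Slc18a2 value in cKO cocaine did not hold in the same way. Its 3917 and 3777 bp lay above 3419, 3500 and 2130 bp in WT with an exact permutation p of 0.30. Per Mb covered and with equal numbers of peaks the groups overlapped.

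Peaks of high significance were confined, among the 10 windows, to the cKO replicates numbered 1. All 13 peaks with a q under 1e-05 came from these lists. Slc6a4 held the strongest: just outside its higher-coordinate end, a peak of 276 bp in cocaine replicate 1 (chr11:77032951-77033226) had a fold enrichment of 14.7, and one of 237 bp in saline replicate 1 (chr11:77032931-77033167) had 11.6. No peak of the other 9 lists touched either. At the opposite end of Slc6a4 the same libraries had peaks with folds of 9.84 and 12.5, and there 9 and 6 of the other lists had a peak as well.

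Narrow peaks of the same kind recurred at Slc6a2 and Drd3. At Slc6a2 the replicates numbered 1 had peaks of 167 and 149 bp with folds of 7.79 and 8.24, 3223 and 3229 bp inside the lower-coordinate end. At Drd3 they had peaks of 207 and 199 bp with folds of 7.13 and 6.24, 9257 and 9251 bp inside the higher-coordinate end. In both places none of the other 9 lists had a peak. Without these 2 libraries Drd3 had a peak in 3 of 9 lists, each in a different place. The Drd1 peak of cKO saline replicate 1, with a fold of 7.84, differed in that 6 of the other 9 lists had a peak at the same bases.

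The rest of the monoamine system gives the setting. Of 13 enzymes of monoamine synthesis and breakdown, which make or degrade these amines, 2 were H2Aub+ in WT saline, 3 in WT cocaine, 2 in cKO saline and 1 in cKO cocaine. They were Gch1, which makes the cofactor of Th, Pnmt, which turns noradrenaline into adrenaline, and Dbh, which makes noradrenaline. Ddc, Maoa and Maob were H2Aub+ in none. Of 7 other carriers of monoamines 2, 4, 2 and 2 were H2Aub+ in the same order of groups, among them Slc29a4, a low-affinity plasma membrane transporter (mean of 2015 bp over 11 libraries), and the vesicle protein gene Sv2c (1498 bp).

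Receptors of the other amines were often H2Aub+ as well. Of 13 adrenergic, histamine and trace amine receptor genes 9, 11, 5 and 9 were H2Aub+, with a median of 5.06% of the window under peaks. The adrenergic receptors Adra2c and Adra2a, with means of 3044 and 2692 bp, and the histamine receptor Hrh3, with 2118 bp, led them. Of 14 serotonin receptor genes 5, 6, 3 and 5 were H2Aub+, led by Htr1d, Htr6 and Htr2a, and of 16 nicotinic receptor subunit genes 5, 7, 5 and 6, led by Chrnb4, Chrna5 and Chrnd.

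The extremes were transcription factors and housekeeping genes. All 14 transcription factor genes of monoamine neurons, such as Lmx1b, Gata3 and Gata2, were H2Aub+ in each group, with a median of 41.5% of the window under peaks against 4.09% for the 10 genes. None of 12 housekeeping genes was H2Aub+ in any group, and 6 of them had no peak in any library. Among 13 genes that act after dopamine receptors, 5, 7, 6 and 3 were H2Aub+, with Pde10a, Ppp1r1b and Rgs9 at the top. Of 12 genes expressed by thalamic relay or midline neurons 5, 9, 3 and 8 were H2Aub+, led by Gbx2, Lef1 and Cacna1g.

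For the cocaine comparison in WT, each list was counted over its tested genes, those with a peak in any WT library. Every cocaine library lay above every saline library at 2 of 5 enzymes, 1 of 5 other carriers and 5 of 12 other monoamine receptors. The same held at 0 of 10 signalling genes and 2 of 14 transcription factors. It held at 4 of the 10 genes described here and at 15.5% of all tested genes. Of the comparison lists, 2 of 10 serotonin receptor genes, 1 of 10 nicotinic receptor subunit genes and 2 of 11 genes of thalamic neurons did so. None of the housekeeping genes had a peak in WT. None of these lists had a gene with every saline library higher. No gene of any list passed the test. These lists were chosen with results of the same data known, and their counts are a description.

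**Figure D4:**
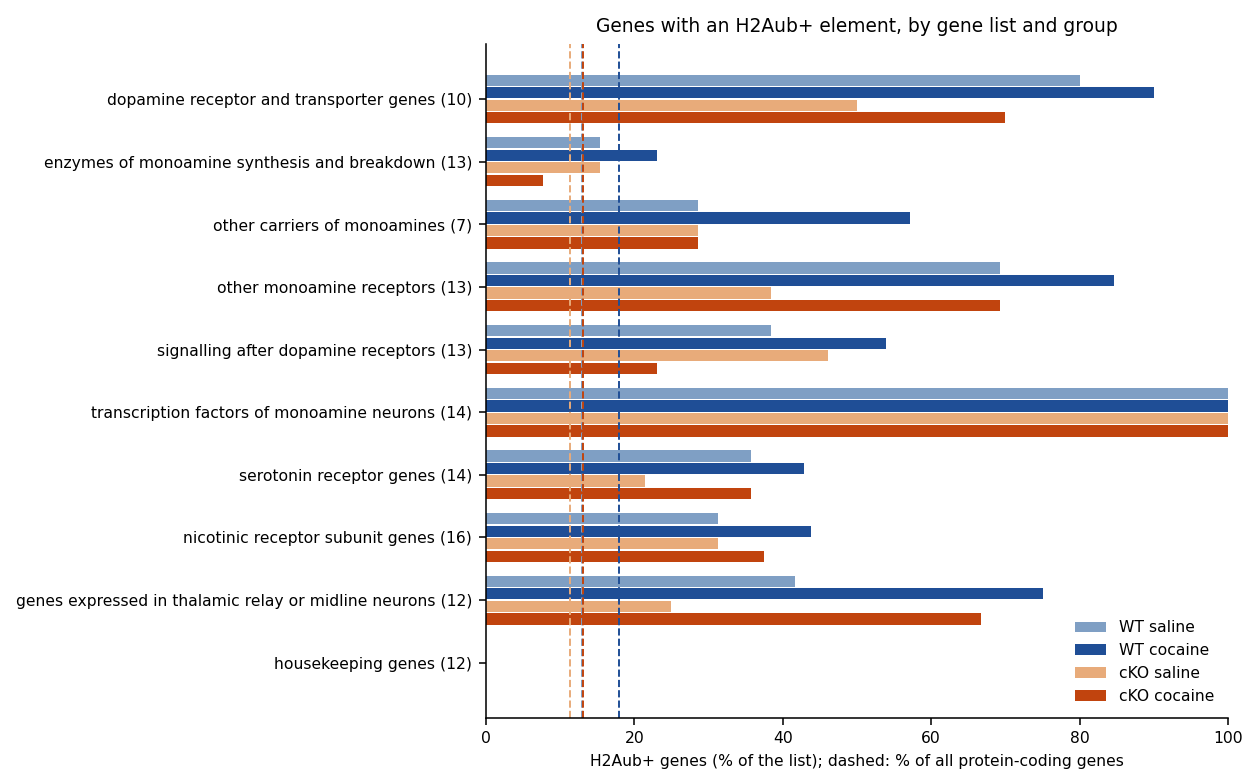
Share of H2Aub+ genes (%, from 0) in each gene list, with the number of genes in brackets, for the 4 groups (bars); dashed lines are the shares over all protein-coding genes in each group (11.4 to 18%). The 10 genes (8, 9, 5 and 7 from the top bar to the bottom one) lie near the other monoamine receptors, below the transcription factors and above the enzymes.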

How the data were processed

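ChIPmentation libraries of H2Aub from mouse thalamus (11) were compared; 4 total input samples were not analysed here. Per the labels and methods, the authors mapped reads with Bowtie2 (2.3.4.1) to mm10, kept reads of high mapping quality with SAMtools, and called broad peaks per library against input with MACS2 (2.1.1.20160309.3), without pooling replicates. Each deposited list gives peak positions, a score, the fold enrichment (a linear ratio), and the −log10 p and −log10 q. The deposited q reached 0.0997, and 9.82 to 32.9% of a list's peaks had q above 0.05 although the study states a stricter threshold; all peaks were used. The study gives a general minimum of sequencing depth, but the reads behind each list are not in the files, so no counting interval can be given and list lengths were not corrected in the main values.

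Autosomal, X and Y peaks were joined by position to 49943 genes (21887 protein-coding) of a GRCm38.p6 table, which shares mm10 coordinates and gives no strand. No sequence was printed because none of the tables used here holds any. Covered bp is the union of peaks inside the gene body plus 5 kb. Groups were compared by exact permutation tests over libraries, with Benjamini-Hochberg adjustment over all protein-coding genes with a peak in any compared library. Nothing in the labels says that pools share no animals or litters, so p values measure the spread between these libraries. Code was tested on simulated data (Python 3.11.15, NumPy 2.4.6, pandas 2.3.3).

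The genes, lists and tests were chosen with earlier results of these data known. All 10 genes were named, as were at most the 3 H2Aub+ genes of each other list with the highest mean covered bp, neighbours in the windows, and the 3 genes most like Drd4. Ddc, Maoa and Maob were named after their values were seen. Alternatives were stricter q (0.05, 0.01), equal peak numbers, scaling per Mb covered, other windows (gene body, 10 kb, gene ends), at least 50% of the peak inside, elements in all replicates, a replicate block, and leaving out libraries. A promoter window by strand and the sequence features of promoters were not run.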

Additional observations from a re-analysis of the deposited data

How the results depend on the processing

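The lists hold no reads, so the depth behind each value is not known. No group had more than 3 libraries, and no comparison of groups was able to pass 0.05. The count of protein-coding genes at an adjusted p of 0.05 or less was 0 in all 4 comparisons under every alternative run.

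With q at most 0.05, WT cocaine libraries had 1.67 more of the 10 genes with a peak than WT saline libraries (0.667 with all peaks). With all peaks, 24.1% of protein-coding genes had a peak in WT cocaine libraries on average and 19.2% in WT saline libraries. The shares at stricter q are not given. No gene was apart with cKO cocaine above WT cocaine at q of at most 0.05 (5.13% of tested genes). The differences after cocaine turned to -125 bp for Drd1 in cKO and 82.7 bp for Drd3 in WT. With q at most 0.01 the H2Aub+ genes were 2 in WT saline (4.57% of protein-coding genes), 5 in WT cocaine (7.6%), 1 in cKO saline (4.31%) and 2 in cKO cocaine (5.08%), the difference in genes with a peak was 2 in WT and turned to 1.17 for cKO against WT cocaine, 8 genes had a higher mean in cKO than in WT saline (91.7% of tested genes), 2 were apart with cKO above WT cocaine (2.99%) and 0 with cKO cocaine above saline (1.85%), and the cocaine differences in cKO turned to -724 bp for Slc6a4, -227 bp for Drd2 and -125 bp for Drd1.

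With equal peak numbers, 2 genes were apart in WT (11.5% of tested genes) and 0 in cKO (1.97%) after cocaine, 1 with WT above cKO saline (5.11%) and 0 with cKO above WT cocaine (2.62%). Means were higher in cKO at 2 genes after saline (51.7%) and 0 after cocaine (43.7%), and at 5 genes for cKO cocaine over saline (56.1%). H2Aub+ genes were 6 in WT saline (8.56% of protein-coding genes), 7 in WT cocaine (10.6%), 2 in cKO saline (5.83%) and 1 in cKO cocaine (0.85%). The differences in genes with a peak were -3.83 for cKO against WT cocaine and -1.17 for cKO cocaine against saline (-0.333 and 1.67 with all peaks). With all peaks, 36.3% of protein-coding genes had a peak in cKO cocaine libraries on average, 24.1% in WT cocaine and 29.0% in cKO saline. These shares are not given for equal peak numbers. Slc6a2 turned to -52.7 bp in WT and -15 bp in cKO, Drd5 to -47.7 bp and Drd1 to -354 bp in cKO, and Slc18a2 to -399.5 bp for cKO against WT cocaine. The difference between the cocaine effects of the genotypes at Drd1 was then -1360 bp with an unadjusted exact permutation p of 0.05, so 1 gene reached the threshold.

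Per Mb covered, 2 genes were apart with WT above cKO saline (2.07%) and 0 with cKO above WT cocaine (7.22%), means were higher in cKO at 2 genes after saline (73.8% of tested genes) and 3 after cocaine (69.0%), and cocaine differences turned at Drd2 (-19.3 bp per Mb) and Slc6a2 (-76.1 bp per Mb) in WT and at Drd2 (-34.8 bp per Mb) and Slc6a4 (-32.6 bp per Mb) in cKO. Within the gene body alone, the difference in genes with a peak in WT was 2, and no share over all protein-coding genes is given for it. In that window Slc6a2 turned to -148 bp in WT, and no gene was apart with cKO above WT cocaine (6.37%). In gene-end windows 1 gene was apart with cKO cocaine above saline (5.7%) and 0 with cKO above WT cocaine (5.39%). With 10 kb flanks Drd1 turned to -128 bp in cKO. With elements in all replicates, 2 genes were H2Aub+ in cKO saline (5.46%).

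Without the cKO replicates numbered 1, 7 genes were apart for cKO cocaine above saline (67.2% of tested genes), 2 for WT above cKO saline (10.1%) and 5 for WT above cKO cocaine (23.3%), means were higher in cKO at 0 genes after saline (22.8%) and 1 after cocaine (28.2%), and 3 genes were H2Aub+ in cKO saline (5.82%). Leaving out each library in turn, genes apart ranged from 4 to 7 for WT cocaine above saline (7 without WT saline replicate 1, against 30.1% of tested genes), from 2 to 7 for cKO cocaine above saline (7 without cKO saline replicate 1, against 28.5%, and 4 without cKO cocaine replicate 2, against 33.1%), from 2 to 5 for WT above cKO cocaine (5 without cKO cocaine replicate 1, against 23.3%, 4 without WT cocaine replicate 3, against 8.59%), from 1 to 6 for cKO above WT cocaine (6 without cKO cocaine replicate 2, against 68.4%) and from 0 to 2 for WT above cKO saline (2 without cKO saline replicate 1, against 10.1%). Genes with a higher mean ranged from 5 to 10 for cKO cocaine over saline and from 1 to 6 for cKO over WT cocaine (both lowest without cKO cocaine replicate 1, against 20.1 and 28.2% of tested genes), and from 0 to 7 for cKO over WT saline (0 without cKO saline replicate 1, against 22.8%, 7 without cKO saline replicate 3 or WT saline replicate 1, against 90.4 and 90.8%). H2Aub+ genes of cKO saline ranged from 3 to 4 (3 without replicate 1, against 5.82% of protein-coding genes, 3 without replicate 2, against 7.8%, and 4 without replicate 3, against 8.64%).

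Also leaving out each library, cocaine differences changed sign in WT at Drd2 (-127 to 915 bp), Drd3 (-118 to 82.7 bp) and Slc6a2 (-155 to 802 bp), and in cKO at Drd1 (-104 to 427 bp), Drd2 (-659 to 899 bp), Drd3 (-476 to 97.5 bp), Slc6a2 (-216 to 1655 bp), Slc6a4 (-499 to 781 bp) and Th (-192 to 2265 bp). In WT, those of Drd1, Drd4, Drd5, Th, Slc6a4 and Slc18a2 stayed positive under every alternative, as did that of Slc6a3 except with q at most 0.01, where it was 0 bp because no WT library had a peak there. Drd1 came close to 0, at 22.3 to 627 bp with a library left out and 4.75 bp per Mb covered. With a library left out, the ranges were 408 to 835 bp at Th, 546 to 922 at Drd5 and 963 to 1669 at Slc6a3. They were 1198 to 2578 bp at Slc6a4, 1518 to 2931 at Drd4 and 1870 to 2555 at Slc18a2. The cause of these shifts was not tested.

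Replicate numbers are shared by the groups, but no label ties a number to a batch, day or litter. Deviations of same-numbered WT cocaine and WT saline libraries correlated at 0.445, 0.179 and -0.252, so the numbers did not pair the WT libraries. The cKO treatments have 2 same-numbered pairs, which correlated at 0.701 and 0.727. With only 2 cKO cocaine libraries, their deviations from the group mean mirror each other. These correlations are thus not independent and cannot settle whether the numbers pair the cKO libraries. With the replicate number as a block, the exact p was 0.25, the smallest that 3 pairs allow, at Drd4, Drd5, Th, Slc6a3, Slc6a4 and Slc18a2 in WT. In cKO the block leaves out cKO saline replicate 3, which has no partner, and the differences without that library were -104 bp at Drd1, -269 bp at Drd2 and -499 bp at Slc6a4. Differences between genotypes at genes whose groups overlapped changed sign in 48 of 265 further recalculations, and differences between the cocaine effects in 22 of 200.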

Other observations

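For Drd4, the gene of the 10 with the most covered length, the protein-coding genes on other chromosomes whose covered length over the 11 libraries was most like its own were Cilp2 (Pearson r = 0.98), D630003M21Rik (r = 0.975) and Igsf9 (r = 0.973). These values describe likeness across libraries that differ in list length, and no p is given.

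Among the 10 genes themselves, the highest correlation of covered length over the 11 libraries was between Slc18a2 and Drd4 (r = 0.835), followed by Th and Drd5 (0.797) and by Slc6a3 and Drd4 (0.784). The points share the length of their lists.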
